A study of Mus musculus with 2 samples.

Results

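The genes described here encode the proteins of the cytosolic ribosome in the mouse heart, together with the muscle paralog Rpl3l. They are all annotated genes whose symbol is Rpl or Rps, a number and at most 1 of the letters a, x, y or l, and which have at least 1 protein-coding transcript. This gave 76 of 55450 genes named in the transcript tables, 46 of the large subunit and 30 of the small. Another 3 symbols fitted but had no protein-coding transcript (Rps4l, Rpl6l and Rpl32l, all annotated as processed pseudogenes). The rule uses names only and no measured value enters it, although members were chosen with earlier results of these data known. It leaves out ribosomal proteins with other names, such as Rpsa, Rplp0 and Fau, which are given further on. Total RNA came from hearts of male B6CASTF1/J mice at 10 days of age, a cross of the laboratory strain B6 with the wild-derived strain CAST. The only group held 2 libraries (replicates 1 and 2), so no condition could be compared. Per the labels these are biological replicates, although 1 donor record is named for both, and the spread given is that between these 2 samples.

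A ribosome is built from ribosomal RNA and one copy of most ribosomal proteins, and its small subunit reads the mRNA while the large one joins amino acids. The mRNAs of these proteins are among the most abundant of growing cells. Many begin with a run of pyrimidines, the terminal oligopyrimidine tract, through which growth signals acting by way of mTOR and Larp1 control their translation. A few ribosomal proteins have paralogs made in particular tissues. Rpl3l, which takes the place of Rpl3 in some ribosomes, is known from striated muscle, while Rpl10l and Rpl39l are known from the testis. Ribosomal protein genes have also left many processed pseudogenes in the genome, whose near-identical sequence matters for short reads.

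The libraries held 38851514 and 37907585 expected counts. Each came in 2 deposited quantifications made from the same reads, here called the first, which starts from transcriptome alignments, and the other, which starts from the reads. Levels are given in TPM, which scales counts for transcript length and library total. All 10 cardiomyocyte markers were detected at 1 TPM or more in both libraries, their TPM summing to 34953 and 32607. Only 1 of 12 skeletal muscle markers was (Tnni2, 1.81 and 1.23 TPM), the list summed to 4.02 and 3.16 TPM, and Myh4 and Myod1 were at 0. None of 8 germ cell markers reached 1 TPM in both, and Tnp1, Tnp2, Prm1, Prm2 and Acrv1 were at 0. The libraries differed in other tissue: adipocyte markers summed to 453 and 49.96 TPM (3 of 9 detected in both, Ucp1 at 239 and 5.02 TPM), and atrial markers to 1551 and 285 TPM (6 of 8, Nppa at 753 and 116 TPM). Erythroid markers summed to 12071 and 12950 TPM (6 of 6), fibroblast markers to 1894 and 1197 TPM (7 of 7), endothelial markers to 1137 and 814 TPM (7 of 7) and immune markers to 56.2 and 35.3 TPM (6 of 8). Fewer cells of a type and less RNA per cell cannot be told apart in such bulk samples.

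Nearly the whole family was present. At 1 TPM or more in both libraries, 74 of 76 members were detected, where 52.6% of 21951 protein-coding genes were. The 2 exceptions were the testis paralogs Rpl10l and Rpl39l. Among protein-coding genes ranked by mean TPM, 62 members stood in the first 500 and 68 in the first 1000. Together the members took 0.813% of all expected counts in replicate 1 (exact 95% Clopper-Pearson interval 0.810% to 0.816%) and 0.751% in replicate 2 (0.748% to 0.754%). Their share of TPM, which is taken per length, was larger, 1.98% and 1.69%. The other quantification gave 0.871% and 0.816% of counts but 3.23% and 3.03% of TPM.

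The median member of the small subunit stood at 307 TPM in replicate 1 and 256.2 in replicate 2, and that of the large subunit, with its 2 undetected members, at 225.5 and 189 TPM. The log2 ratio of the large to the small median was -0.44 in both replicates. In the other quantification that ratio was only -0.07 and -0.13, with medians of 409 and 374 TPM for the large subunit and 429 and 410 for the small. For scale, the median of 78 mitochondrial ribosomal proteins was 32.9 and 27.8 TPM, and that of 11541 detected protein-coding genes 11.1 and 9.59 TPM. Although one ribosome holds equal numbers of most of these proteins, the level of the members with at least 50 counts varied with a coefficient of variation of 55.4% between genes in the first quantification and 51.3% in the other.

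**Figure D1:**
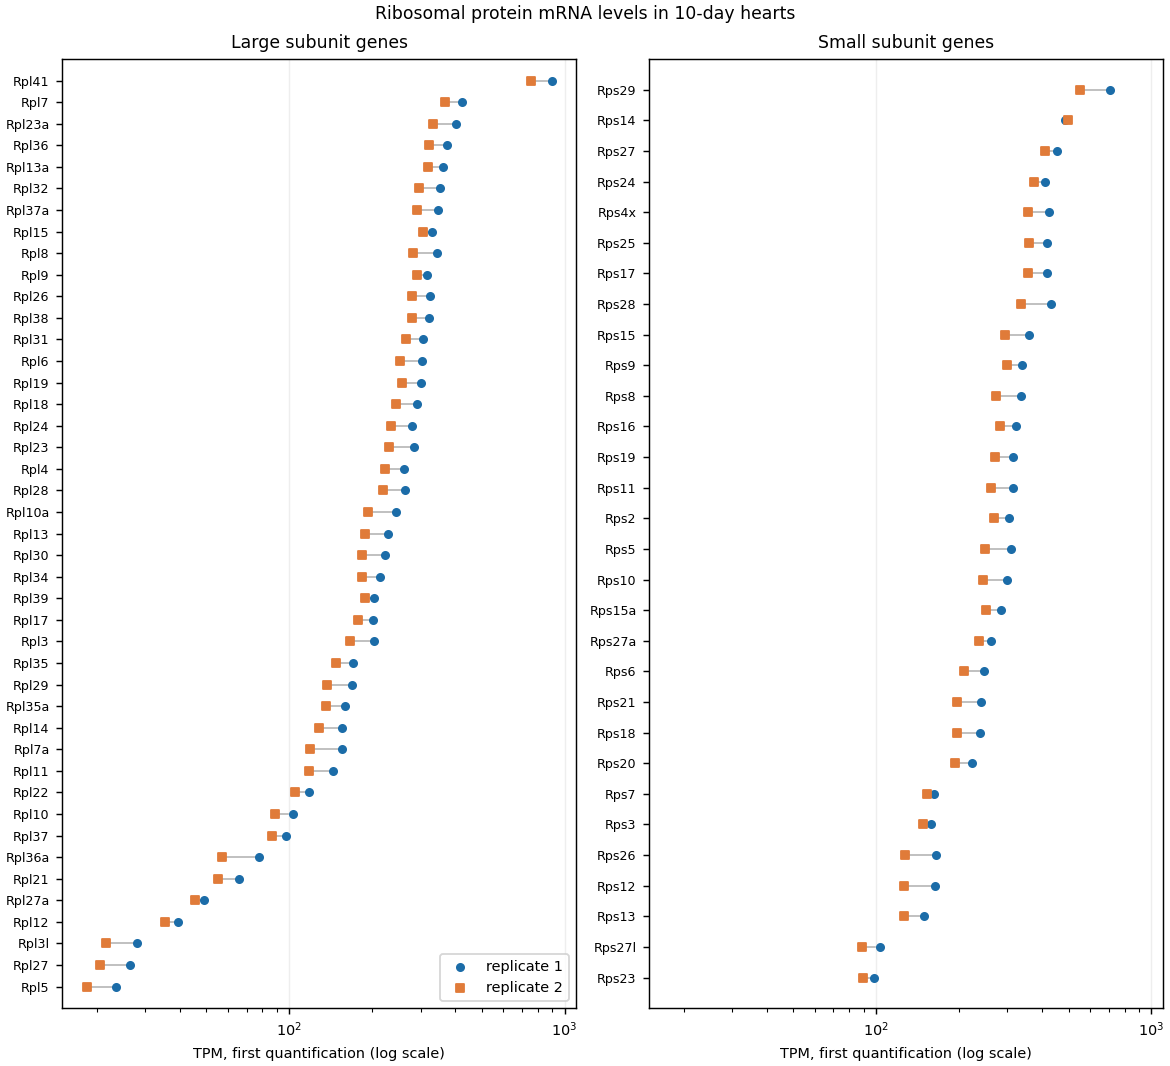
TPM of members counted 50 times or more on average, on a log axis, in the first quantification. Circles are replicate 1 and squares replicate 2, joined by a line for each gene; large subunit genes are on the left and small subunit genes on the right. Most genes lie between 100 and 500 TPM, Rpl41 and Rps29 lie above, and Rpl5, Rpl27 and Rpl3l lie lowest.

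Among the highest members were Rpl41, Rps29, Rps14 and Rps27. Rpl41, a very short and basic peptide of the large subunit, was at 899 TPM in replicate 1 and 758 in replicate 2, the 49th-ranked protein-coding gene. Rps29, a zinc-binding protein of the small subunit, was at 706 and 549 TPM. Rps14, on the platform of the small subunit, was at 484 and 497 TPM. Rps27, a zinc-finger protein of the small subunit, was at 453 and 409 TPM. Of these 4, all but Rps14 were higher in replicate 1. In the other quantification Rpl41 was again the highest of these at 1688 and 1532 TPM, and Rps29 stood at 774 and 705 TPM.

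At the low end were Rpl5, Rpl27, Rpl3l, Rpl12 and Rpl27a. Rpl5, which with Rpl11 carries the 5S rRNA and can restrain Mdm2, was at 23.5 and 18.4 TPM. Rpl27 was at 26.4 and 20.5 TPM, Rpl3l at 28.1 and 21.7 TPM, Rpl12, at the base of the ribosomal stalk, at 39.4 and 35.5 TPM, and Rpl27a at 49.0 and 45.6 TPM. For 4 of these 5 the other quantification gave much higher levels. It gave Rpl5 159 and 157 TPM, Rpl27 314 and 286, Rpl12 146 and 134, and Rpl27a 408 and 372. Against a median of 413 and 392 TPM over the 74 members there, Rpl5 and Rpl12 remained low. Gm15500, which shares sequence with Rpl5, held 5421 and 5292 counts there, and Gm10275, which shares sequence with Rpl12, held 1971 and 1852. The levels of Rpl5 and Rpl12 are thus uncertain. Rpl3l, at 42.6 and 34.8 TPM, was the lowest of the 74 there.

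Rpl3l and Rpl3 were compared in detail because they are the muscle and the general form of one protein, which reaches from the surface of the large subunit to the peptidyl transferase centre. Rpl3 lies on chromosome 15 (80077791 to 80091868, minus strand, mm10) and Rpl3l on chromosome 17 (24727820 to 24736143, plus strand). The reading frame of the leading coding transcript was 403 codons in Rpl3 and 407 in Rpl3l, and 896 of 1205 aligned bases were identical (74.4%). None of the 31-base words of the transcripts of Rpl3l occurred in those of Rpl3. The first 90 bases of the frame are shown with a processed pseudogene of Rpl3, Rpl3-ps1 (chromosome X, 13202571 to 13203780, plus strand), to show which reads can tell these genes apart. Sequences are those of the GENCODE transcripts, and capitals mark bases that differ from Rpl3, 21 in Rpl3l and 1 in Rpl3-ps1.
Rpl3: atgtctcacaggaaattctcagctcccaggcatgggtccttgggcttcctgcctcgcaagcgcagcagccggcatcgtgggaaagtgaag
Rpl3l: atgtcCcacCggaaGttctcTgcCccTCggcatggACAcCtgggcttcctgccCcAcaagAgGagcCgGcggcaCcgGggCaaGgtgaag
Rpl3-ps1: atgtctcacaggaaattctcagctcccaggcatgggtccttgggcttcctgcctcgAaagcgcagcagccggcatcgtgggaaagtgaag

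Rpl3 was the more abundant of the pair. It had 203 TPM in replicate 1 and 166 in replicate 2 (5868 and 5164 counts), against 28.1 and 21.7 TPM for Rpl3l (1061 and 858 counts). The replicates of the genes did not overlap, and Rpl3 was 7.22-fold and 7.66-fold higher (log2 ratio of Rpl3l over Rpl3 -2.89 ± 0.06, SD, n = 2, with 0.1 TPM added to each gene). Rpl3l thus made up 12.2% and 11.6% of the TPM of the pair, and ranked 2699 among protein-coding genes where Rpl3 ranked 338. The other quantification gave 382 and 345 TPM for Rpl3 and a log2 ratio of -3.23 ± 0.10. Over the whole aligned length 1207 of 1209 bases of Rpl3-ps1 were those of Rpl3 (99.8%), and in the first quantification this pseudogene was listed with 4573 and 4043 counts, 4202 and 3781 in the other. With the TPM of the 4 genes that share sequence with Rpl3 added to it, Rpl3l was 7.65% and 7.19% of the sum, and the log2 ratio was -3.64 ± 0.07. None of the words of Rpl3l occurred in another annotated gene, and its counts hardly moved between quantifications (1016 and 837 in the other). The transcript Rpl3l-202 held 997 and 804 of its counts in the first. Skeletal muscle, another tissue in which Rpl3l is made, was close to absent by the markers given above. Its part in the Rpl3l counts was not tested.

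**Figure D2:**
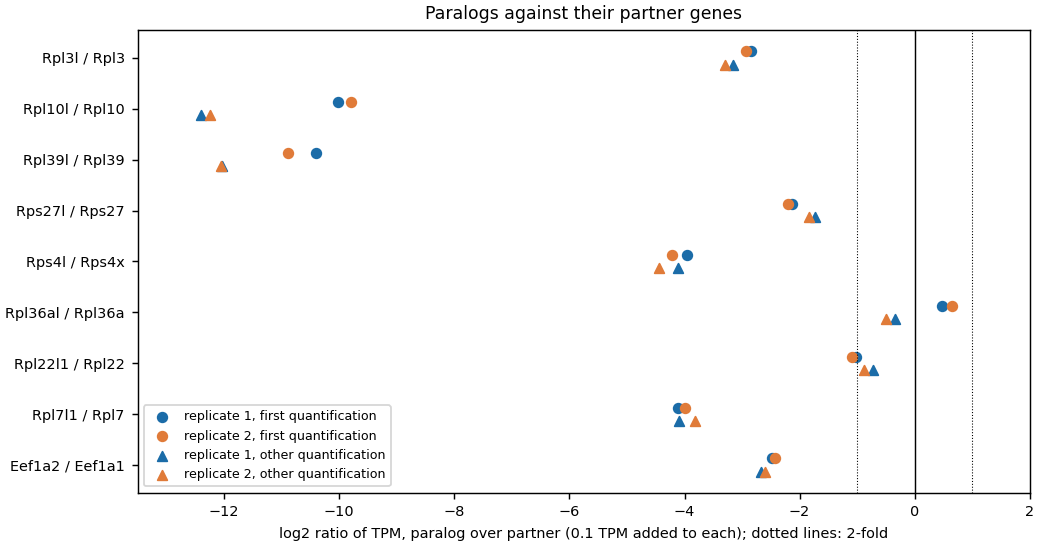
Log2 ratio of TPM of each paralog over its partner gene, with 0.1 TPM added to each. Circles are the first quantification and triangles the other, coloured by replicate; the solid line marks equal levels and the dotted lines 2-fold. Only Rpl36al changes side between quantifications; Rpl3l lies near -3 in all 4 points, and Rpl10l and Rpl39l lie at the far left because they had 0 or 1 count.

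The testis forms were absent or nearly so. Rpl10l, the retrogene form of Rpl10, which sits near the tRNA site and joins the large subunit late in its assembly, had 0 counts in both libraries, which 3 counts (0.107 and 0.101 TPM) would bound. Rpl10 stood at 103.3 and 88.7 TPM (2269 and 2098 counts), at least 962-fold and 875-fold higher per length than 3 counts of Rpl10l in each library. Rpl39l had 1 count in replicate 1 and 0 in replicate 2. Its partner Rpl39, a short protein in the wall of the exit tunnel, had 204 and 188.5 TPM (3155 and 3096 counts), in replicate 1 4345-fold more per length with a counting interval of 780 to 171631, and in replicate 2 at least 1165-fold more than 3 counts. In the other quantification both paralogs were at 0.

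The remaining pairs were less far apart. Rps27l, whose protein replaces Rps27 in some ribosomes, was at 103.1 and 89.0 TPM against 453 and 409 for Rps27, a log2 ratio of -2.17 ± 0.05 in the first quantification and -1.79 ± 0.07 in the other. Their frames have 84 codons each, 76.2% of bases were identical, and the transcripts shared no word, so reads of the pair are distinct. Rps4l, annotated as a transcribed processed pseudogene, was at 27.3 and 19.1 TPM against 426 and 356 for Rps4x (log2 ratio -4.08 ± 0.18). Rpl7l1, a factor in large subunit assembly, was at 24.5 and 23.1 TPM against 426 and 367 for Rpl7 (-4.05 ± 0.09). Rpl22l1 was at 58.4 and 49.0 TPM against 118 and 105 for Rpl22, an RNA-binding protein that ribosomes can do without (-1.06 ± 0.06). In the other quantification Rpl22l1 was less than 2-fold from Rpl22 (-0.81 ± 0.10). With protein-coding transcripts alone the ratio was -4.05, most Rpl22l1 counts having gone to a processed transcript.

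Rpl36al and Rpl36a changed order with the quantification. In the first, Rpl36al had 108 and 89.8 TPM and Rpl36a 77.6 and 57.3, a log2 ratio of 0.56 ± 0.12. In the other they had 148 and 120, and 189 and 171, a ratio of -0.43 ± 0.11. The frames of both genes have 106 codons with 87.7% of bases identical, and their transcripts shared no word. Rpl36a, however, has a processed pseudogene, Rpl36a-ps2, all of whose words occur in Rpl36a, with 805 and 872 counts in the first quantification and 0 in the other. With such copies added to Rpl36a the log2 ratio in the first was -0.95. Eef1a2, the muscle and nerve form of the elongation factor, was at 267 and 231 TPM against 1500.2 and 1239 for Eef1a1 (-2.46 ± 0.05). In all, 8 of 9 paralogs were over 2-fold below their partner in both libraries in the first quantification and 7 of 9 in the other.

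The quantifications placed many members at different levels. Between replicates the levels of the 74 members had a Spearman correlation of 0.994, but between quantifications only 0.63, where over 11541 detected protein-coding genes it was 0.974. These are correlations across genes of the same libraries, given as descriptions. The members cover a narrower range of mean levels in the first quantification (20.96 to 828 TPM) than the detected genes (1.02 to 27367 TPM). The correlations of 0.63 and 0.974 are therefore not like for like. In both libraries 22 of 74 members were over 2-fold higher in the other quantification, where 6.27% of 13812 genes were, and 2 members were over 2-fold lower (Rpl19 and Rpl36), where 3.53% of genes were. The median member was 1.59-fold and 1.76-fold higher in the other, against 1.25-fold and 1.37-fold for the median gene.

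The differences were largest for Rpl27 (log2 3.68), Rpl27a (3.04), Rpl5 (2.92), Rps23 (2.43), Rpl10 (2.41), Rpl37 (2.19), Rpl21 (2.02) and Rpl12 (1.90). Smaller differences, from 1.06 to 1.64, were those of Rpl11, Rpl14, Rpl31, Rps12, Rpl36a, Rpl28, Rpl35, Rpl29, Rps26, Rps20, Rpl35a, Rpl23, Rpl39 and Rpl37a. Rps23, which lies at the decoding centre, was at 98.4 and 89.6 TPM in the first and 512 and 501 in the other. Rpl19 went the opposite way, from 300.1 and 257 TPM to 96.1 and 90.8.

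Genes that share sequence with a member were counted next, as the reads of such genes can be assigned to either. A pseudogene or protein-coding gene was taken as a copy where at least 50% of its 31-base words occurred in the protein-coding transcripts of a member. There were 295 copies, of which 278 were processed pseudogenes, 8 transcribed processed pseudogenes and 9 typed protein_coding, and 64 of the 74 members had at least 1, with a median of 3 and up to 19 for Rpl21. In the first quantification they held 21.6% and 21.5% of the counts of members and copies together, and in the other 10.0% and 10.1%.

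Rpl10 shows how complete the likeness can be. Rpl10-ps3, on chromosome 9 (50344201 to 50344968, minus strand), is identical to the reading frame of Rpl10 (chromosome X, 74270812 to 74273135, plus strand) over all 642 bases and is itself typed protein_coding, while Rpl10l (chromosome 12, 66283379 to 66284401, minus strand) is identical at 84.7%. Their first 90 bases follow, with capitals where a base differs from Rpl10, 13 in Rpl10l and 0 in Rpl10-ps3.
Rpl10: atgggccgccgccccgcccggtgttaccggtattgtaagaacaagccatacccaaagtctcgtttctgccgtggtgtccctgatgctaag
Rpl10l: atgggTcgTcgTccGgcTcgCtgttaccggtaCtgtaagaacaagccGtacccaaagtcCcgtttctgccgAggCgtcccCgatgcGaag
Rpl10-ps3: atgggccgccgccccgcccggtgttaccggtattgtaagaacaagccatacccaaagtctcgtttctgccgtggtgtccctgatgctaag

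In the first quantification Rpl10-ps3 had 4922 and 4140 counts, more than Rpl10 itself. In the other it had 0, and Rpl10 had 7351 and 6404. Rpl10 and its 9 copies together came to 7206 and 6244 counts in the first and 7362 and 6413 in the other, so the sum was nearly the same and the division was not. For Rpl27, 2 pseudogenes (Gm11518 and Rpl27-ps3) had the same counts as each other, 1312.62 in replicate 1 and 1135.16 in replicate 2, all their words occurring in Rpl27, and were at 0 in the other quantification. Rpl27 had 455 and 369 counts in the first and 3140.0 and 2724 in the other, while with its copies it had 3080.0 and 2639 in the first. For Rpl5, Gm15500, a transcribed processed pseudogene, took 7146 and 7120 counts in the first and 5421 and 5292 in the other, where Rpl5 had 1212 and 990.1, and 2973 and 2772.

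Adding copies brought the counts of most such members together. Of the 74 members, 13 differed over 2-fold in counts between quantifications when taken alone and 4 when taken with their copies. The share of all genes over 2-fold apart in counts was not computed. Adding counts on both sides can by itself bring a ratio nearer to equality, and how far it did so here was not tested. The median absolute log2 difference went from 0.20 to 0.09, and 42 of the 64 members with a copy came closer. Across the 74 members the share of words found in other genes had a Spearman correlation of -0.06 with the signed log2 difference in counts. The 4 that stayed apart were Rpl36, Rps21, Rps29 and Rpl37. In the first quantification Rps29 had 6215 and 5115 counts, Rps21 2147 and 1868, and Rpl36 3202 and 2922. In the other these 3 had 2215 and 1954, 589 and 555, and 447 and 409. Their leading coding transcripts are short, at 390, 394 and 383 bases, and whether length had a part in the gap was not tested. Despite the gap in counts, the TPM of Rps29 differed little (706 and 549 against 774 and 705). Rpl37 had no copy and 1420 and 1287 counts in the first against 2937 and 2652 in the other.

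**Figure D3:**
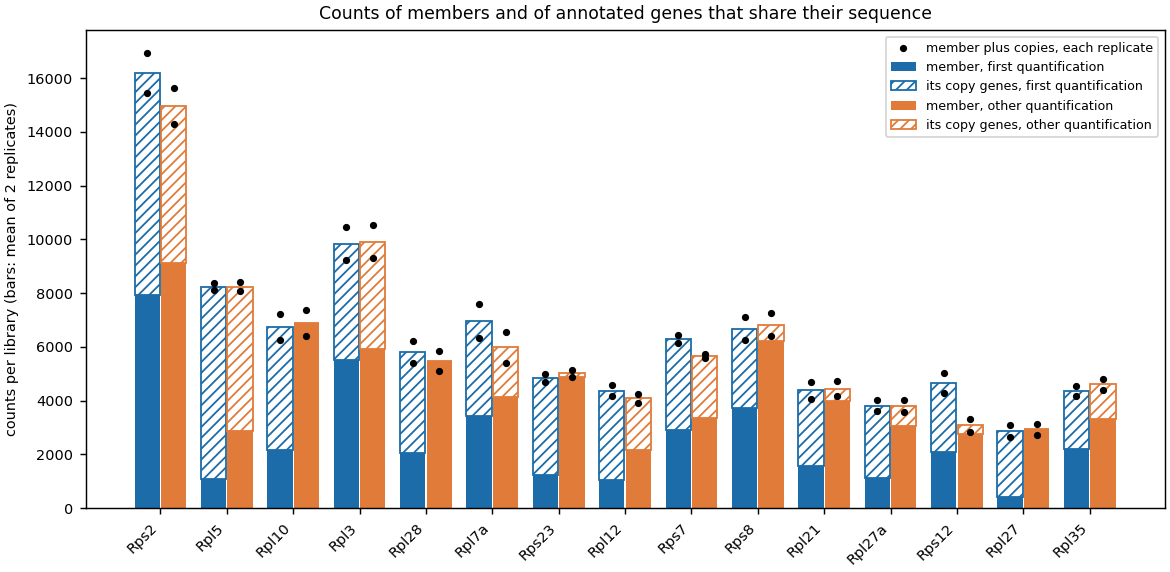
Counts of the 15 members whose copies held the most counts in replicate 1 of the first quantification. Filled bars are the member and hatched bars its copies, as means of 2 replicates, blue for the first quantification and orange for the other; dots give member plus copies in each replicate. For Rpl10, Rpl27, Rpl5 and Rps23 the whole bars are of nearly equal height while the filled parts differ.

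Transcript classes also divided differently. Protein-coding transcripts held 85.5% and 85.4% of the members' counts in the first quantification and 73.5% and 73.0% in the other. Retained-intron transcripts held 7.30% and 7.25%, then 14.1% and 14.1%, and processed transcripts 4.69% and 4.93%, then 10.7% and 11.0%. Transcripts marked for nonsense-mediated decay held 2.54% and 2.43%, then 1.71% and 1.87%. In the first quantification 10 of 74 members had over 50% of their counts outside protein-coding transcripts, where 4.07% of 12129 protein-coding genes did. In the other quantification 21 members did, where 4.95% of genes did, and in both 7 members did, where 3.08% of genes did.

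Among the largest shares in the first quantification were those of Rps16 (96.8% and 96.7%), Rps26 (97.5% and 95.6%), Rpl35 (96.4% and 94.7%) and Rps18 (89.3% and 89.2%). The other quantification gave Rps16 55.1% and 54.3%, Rps26 38.6% and 39.1%, Rpl35 56.8% and 62.6%, and Rps18 96.1% and 99.7%. For Rps26, Rps26-202, a retained-intron transcript of 596 bases, took 2414 and 1940 counts in the first, against 63.3 and 89.2 for the coding Rps26-201 of 681 bases. In the other, Rps26-201 took 2144 and 1788. Rps18 was assigned mostly to different transcripts in each, Rps18-210 (2534 and 2196 counts) in the first and Rps18-209 and Rps18-211 in the other (1136 and 1140, and 1081 and 899).

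**Figure D4:**
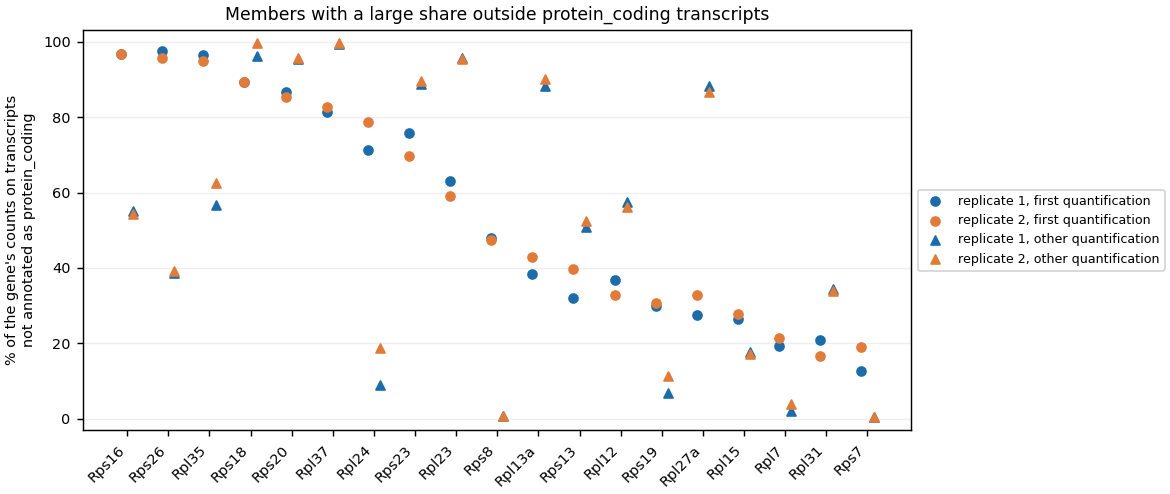
Percent of a gene's counts on transcripts not annotated as protein_coding, for members with a large such share in the first quantification. Circles are the first quantification and triangles the other, coloured by replicate. The replicates lie close together, while the quantifications differ widely for Rps26 and Rpl24.

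Between the hearts the members differed little. By TPM 73 of 74 members were lower in replicate 2, Rps14 alone being higher, and 65 were lower in the other quantification. The share of all genes lower by TPM was not counted. The median detected protein-coding gene was also lower, at 11.1 and 9.59 TPM in the first quantification and 14.0 and 13.3 in the other. Counts were then scaled by TMM, which sets the bulk of genes level. The median member had a log2 ratio of replicate 2 over replicate 1 of -0.02. That of the 13213 genes averaging 50 counts or more was 0.01, and that of mitochondrial ribosomal proteins -0.03. Below 0 were 45 of the 74 members (60.8%), against 48.7% of the 13213 genes. The members ranged from -0.20 to 0.28. None of the 74 was over 1.5-fold lower or higher with an exact 95% interval that left out 1, where 3.14% of genes were lower and 3.13% higher. The interval left out 1 on the lower side for 15 members and on the higher side for 11, where it did for 20.5% and 22.3% of genes. Only 1 member was over 1.2-fold apart, where 17.1% of 8060 genes at the lowest member's mean count (412) or more were. Of these 8060 genes, 105 were over 1.5-fold lower and 140 higher with an interval that left out 1, also small shares. All other members were counted more deeply than that minimum. The adipocyte and atrial marker sums given above differed between these libraries, and their part in these ratios was not tested.

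The members lowest in replicate 2 were Rpl36a (-0.20, interval -0.34 to -0.06), Rpl3l (-0.16, -0.30 to -0.03), Rpl27 (-0.16, -0.36 to 0.04), Rps12 (-0.16, -0.25 to -0.07) and Rpl5 (-0.15, -0.27 to -0.03). These intervals cover counting error of 1 library each. In the other quantification Rpl36a was at -0.03 and Rpl5 at 0.01, while Rpl3l was at -0.17, Rps12 at -0.11 and Rpl27 at -0.10 with intervals that left out 1. The highest were Rps14 (0.28, 0.23 to 0.33), Rps23 (0.14, 0.02 to 0.25), Rpl22 (0.13, 0.04 to 0.22), Rpl39 (0.11, 0.04 to 0.19) and Rpl9 (0.10, 0.05 to 0.15). Rps14 was at 0.24 in the other quantification, where Rps23 (0.03, -0.03 to 0.08) and Rpl9 (0.05, with an interval from just under 0 to 0.10) had intervals that did not leave out 1. Under scaling by the total count Rpl9 was just under 0. Rps14 had 6867 counts in replicate 1 and 7549 in replicate 2. Its transcript Rps14-201 went from 4946 to 3859 counts and Rps14-202 from 825 to 2599, while the other quantification placed 5797 and 6005 counts on Rps14-208 and 0 on Rps14-202. Rps14 overlaps Ndst1 on the opposite strand (6818 and 5726 counts), and is one of 21 members that overlap an annotated gene there. In the first quantification those genes ranged from 0 counts in both libraries (Gm17106 and Gm15420) up to Ndst1. The share of all genes with such an overlap was not computed. Whether the counting used strand was not given in the sources used here.

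**Figure D5:**
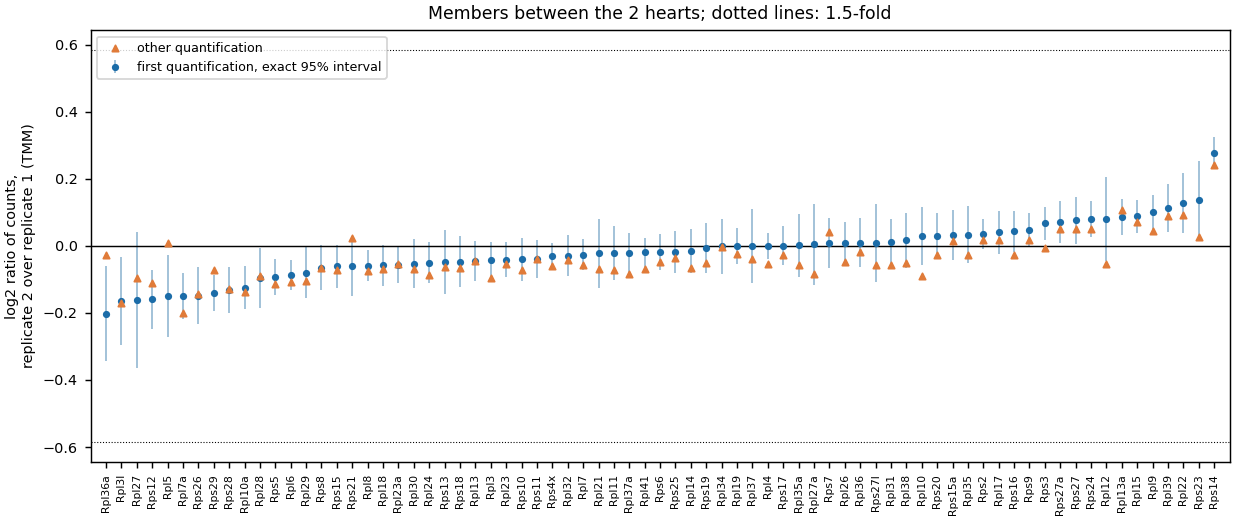
Log2 ratio of counts, replicate 2 over replicate 1, for members in order. Circles with bars are the first quantification with its exact 95% interval, triangles the other quantification, and dotted lines mark 1.5-fold. All lie between -0.20 and 0.28, and Rps14 lies above the rest in both quantifications.

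Of the ribosomal proteins with other names, all 12 listed were detected in the first quantification. The stalk proteins Rplp1 and Rplp2 were at 742 and 654 TPM, and 470 and 362 TPM, and Rplp0, which anchors them, at 329 and 289 TPM. Fau, which is made as a fusion with a ubiquitin-like protein, was at 321 and 274 TPM. Rpsa was at 275 and 213 TPM, Rps3a1 at 257.5 and 218, and Rack1, a signalling scaffold on the small subunit, at 221 and 198. Rps27rt, a retrogene of Rps27, was at 15.1 and 14.7 TPM in the first quantification and at 0 in the other.

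The lists of other translation genes were detected throughout, at lower levels for assembly than for elongation. All 14 elongation genes and other mRNAs with a pyrimidine tract were detected, with a median of 182 and 148 TPM. They were led by Eef1a1, by Tpt1 at 1296 and 1184 TPM and by the translocation factor Eef2 at 557 and 485 TPM. All 23 ribosome assembly genes were detected, with a median of 12.8 and 11.3 TPM, led by the nucleolar proteins Npm1 (84.2 and 71.9 TPM) and Ncl (70.3 and 57.8) and by Eif6 (32.4 and 27.3), which keeps the subunits apart. The 13 genes of the RNA polymerase I machinery had a median of 9.93 and 9.10 TPM, led by Polr1d (36.9 and 27.5), Ubtf (33.8 and 27.2) and Polr1a (15.3 and 16.7), the largest subunit of the polymerase. The 14 genes of growth control had a median of 15.3 and 12.2 TPM, led by Eif4ebp1 (68.8 and 65.5), Eif4e (52.4 and 45.3) and Eif4ebp2 (37.4 and 28.8).

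The start regions of the members were read from RefSeq windows of the GRCm38.p6 build, 250 bases before to 50 after each annotated start, for which 57 of 76 members matched. Those of the 4 members below run from 30 bases before the start to 20 from the start onward. They are printed to set the nearest run of Rps27 beside those of 2 paralogs and of Rpl39. Capitals mark the run nearest to the start, a C with at least 4 further C or T bases on the strand of the gene, within 10 bases of the start. Longer runs farther from the start are left in lower case, such as cttcttct after the start of Rpl39 and ctcctcccc before that of Rps27l. The length of the capitals is therefore not that of the longest run of a gene. Rps27 is at chr3:90213629-90213678 (minus strand), Rps27l at chr9:66946056-66946105 (plus), Rpl39 at chrX:37085203-37085252 (minus) and Rpl3l at chr17:24727796-24727845 (plus).
Rps27: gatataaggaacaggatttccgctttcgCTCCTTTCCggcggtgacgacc
Rps27l: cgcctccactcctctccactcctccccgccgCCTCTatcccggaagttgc
Rpl39: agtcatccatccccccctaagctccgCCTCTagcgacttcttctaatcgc
Rpl3l: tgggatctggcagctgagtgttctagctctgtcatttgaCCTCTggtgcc

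In Rps27 the run is 9 bases long and begins 2 bases before the annotated start. In Rpl3l it is 5 bases long and begins 9 bases after it. Rpl3l and Rps27l each have another annotated start, not printed here, which had no such run within 10 bases. Without the paralogs Rpl3l, Rpl10l and Rpl39l, 12 of 54 members (22.2%) had a C exactly at an annotated start with at least 4 further C or T bases after it, whether or not the run of pyrimidines began earlier, where 3.01% of 27025 genes in the table did. These were Rpl14, Rpl15, Rpl28, Rpl35, Rpl35a, Rpl38, Rps6, Rps10, Rps15a, Rps18, Rps21 and Rps27. Within 10 bases of the start 34 (63.0%) had such a C, where 34.4% of genes did. On either strand of the window, CCGGAAG, a core that ETS factors are known to bind, occurred in 22 members (40.7%, against 9.93% of genes). GGGCGG, the GC box, occurred in 32 (59.3%, against 38.2%), AAGATGGC, a YY1 core, in 5 (9.26%, against 3.19%), and TATAAA in 5 (9.26%, against 15.7%). The motifs searched share no full match with one another. Rpl3l had neither CCGGAAG nor GGGCGG in its windows, and the same was so of other members, among them Rps27, Rpl4 and Rpl5. Rpl3 was among the members with no matching window. A match describes letters in the window and not a bound site.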

How the data were processed

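Total RNA of 2 hearts was measured, 1 library each, spiked with ERCC controls and reduced in ribosomal RNA per the labels, from 300 ng. The authors used the mm10 build with GENCODE M21, per the deposited notes; program names are not given in the sources used here. Per the file headers, the authors deposited expected counts per gene and transcript in the first quantification and estimated counts per transcript in the other, both dividing reads that fit several transcripts. The deposited TPM sums to a constant over all rows of a file. FPKM, per the file headers, was used as an alternative. Reads of CAST alleles were assigned to a B6-based reference.

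Here, levels are the mean and SD of TPM over 2 replicates. Expected counts were rounded, scaled by edgeR 4.0.16 TMM factors (R 4.3.3), 0.5 was added, and the ratio of replicate 2 over replicate 1 was taken with an exact 95% Clopper-Pearson interval. A ratio past 1.5-fold was called where the counts averaged 50 or more and the interval left out 1. With 1 group and 2 samples no test was made and no p-value is given. The ratio step was tested on simulated counts drawn with counting error only, which cannot show how it handles variation between animals. Copies, reading frames (the longest open frame of the leading coding transcript, aligned with Biopython 1.88) and coordinates came from the GENCODE M21 transcripts and annotation, and start regions from RefSeq. DESeq2 1.42.0 size factors were an alternative. Intervals and the floor of 3 counts cover counting error only.

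Genes named are all those of the pairs, the 5 highest and 5 lowest members, members under 1 TPM, the 5 at each end of the ratios, members over 2-fold apart between quantifications, the 5 with the largest share outside protein-coding transcripts, the 3 highest of each translation list, and ribosomal proteins outside the symbol rule; copies and single transcripts were named after their values were seen. Not every gene that this rule names is reported here or drawn, while all members enter the counts, medians and sums. Members and lists were chosen with earlier results of these data known.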

Additional observations from a re-analysis of the deposited data

How the results depend on the processing

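The members' share of TPM, 1.83% as the mean of the replicates, was 3.13% in the other quantification, 4.56% of the TPM of nuclear protein-coding genes and 1.52% from protein-coding transcripts only, and ranged from 1.69% to 1.98% without one replicate. The log2 ratio of Rpl3l over Rpl3 was -3.23 in the other quantification and -3.64 with copies added to Rpl3, an alternative chosen after seeing the data, and ranged from -2.93 to -2.85 without one replicate. Of 62 recomputed pair ratios, 2 changed sign, both of Rpl36al over Rpl36a (-0.43 in the other quantification and -0.95 with copies added). Pairs over 2-fold apart numbered 8 of 9 in all alternatives but 2. They were 7 of 9 in the other quantification, and 7 of 8 with protein-coding transcripts only, where Rps4l has none. The median ratio between replicates was -0.12 under scaling by the total count, and no member passed 1.5-fold under any scaling tried. The log2 ratio of the large to the small subunit median, -0.44 as reported, was -0.10 in the other quantification and -0.40 over members with at least 50 counts. The share of counts outside protein-coding transcripts, 14.6%, was 26.7% in the other quantification and 17.0% as a share of TPM. In all these the cause was not tested. The number of detected members was 74 in each alternative run, and 22 to 26 members were over 2-fold higher in the other quantification. No paired analysis was possible because there is only 1 group. With 2 samples, only the division of reads and the spread between these libraries can be seen, and members with copies are uncertain in level.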
